A study of Mus musculus with 24 samples.

Results

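The 50 interferon-stimulated antiviral effector genes described here were taken by symbol from a written list of genes that interferon is known to induce, without a threshold on these data. The list was chosen with earlier results of these data known, so it is not independent of them. Its genes were looked up among the 16387 genes measured at 1 or both timepoints in the retinas of adult male C57BL/6J mice after blast-induced traumatic brain injury (bTBI) or sham treatment. Of the 50 genes, 41 were among the 14922 genes of 1 week, 40 among the 15920 genes of 5 weeks and 38 in both. Phf11d, Slfn2 and Ifi44 were measured at 1 week alone and Oas1b and Mx2 at 5 weeks alone, and Oas1a, Oas2, Oas3, Oasl1, Zbp1, Mx1 and Sp110 were listed at neither timepoint.

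The bTBI mice were anesthetized, placed in a closed chamber and hit by a blast wave, while the sham mice were handled alike but received no blast. RNA of the whole retina of the directly exposed eye was sequenced in 6 bTBI and 6 sham mice 1 week after injury (8 days in the labels) and in 6 bTBI and 6 sham mice at 5 weeks, 24 retinas in all, each from its own mouse. Extraction used the RNeasy Plus Mini Kit for the retinas of 1 week and the plain RNeasy Mini Kit for those of 5 weeks, so kit and timepoint cannot be told apart, and levels were compared between bTBI and sham within a timepoint and never between timepoints. The labels name the cell type as retinal ganglion cell (RGC), but the RNA came from whole retinas and held rod transcripts among others. Values are normalised read counts, which are the reads of a gene scaled to the effective library size of that retina, and each retina had between 14301989 and 25158638 counted reads. Fold changes are differences of mean log2(value + 1), bTBI minus sham, and understate the change of genes with low values.

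Interferons are secreted proteins that bind receptors on the cell surface, where JAK kinases phosphorylate STAT factors. These join IRF9 and bind interferon-stimulated response elements in front of the effector genes. The effectors tag proteins with ISG15, sense or degrade viral RNA, block viral entry and release, and deplete nucleotides, and in the nervous system glia are among the cells known to express them after infection or injury.

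At 1 week after bTBI, effector transcripts of every role rose in the retina. Of the 41 measured genes, 29 were called higher in bTBI retinas at an adjusted p under 0.005 and 0 were called lower, while 1.27% of all genes tested were called higher and 0.985% lower. The median log2 fold change of the 41 genes was 0.87, and single genes lay between -0.00 for Adar and 2.09 for Ifit1, with 40 of the 41 above 0. At an adjusted p under 0.05, 35 of the 41 were higher, against 3.02% of all genes. In 27 of the 41, every bTBI retina lay above every sham retina, which held for 1.59% of all genes. In RNA of whole retinas, more cells that express a gene and more RNA per cell cannot be told apart. Genes entered the data only if they reached a value of about 1 in at least 6 of the 12 retinas, and 5 of the 41 genes (Dhx58, Phf11d, Slfn2, Ifi44 and Rtp4) reached 1 in fewer than 6 sham retinas, so their place among the measured genes rests on the bTBI retinas, in part for Dhx58, Slfn2 and Rtp4 (4 or 5 sham retinas at 1 or more), for the most part for Ifi44 (1) and wholly for Phf11d (0). Of the other 36, 25 were called higher.

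**Figure D1:**
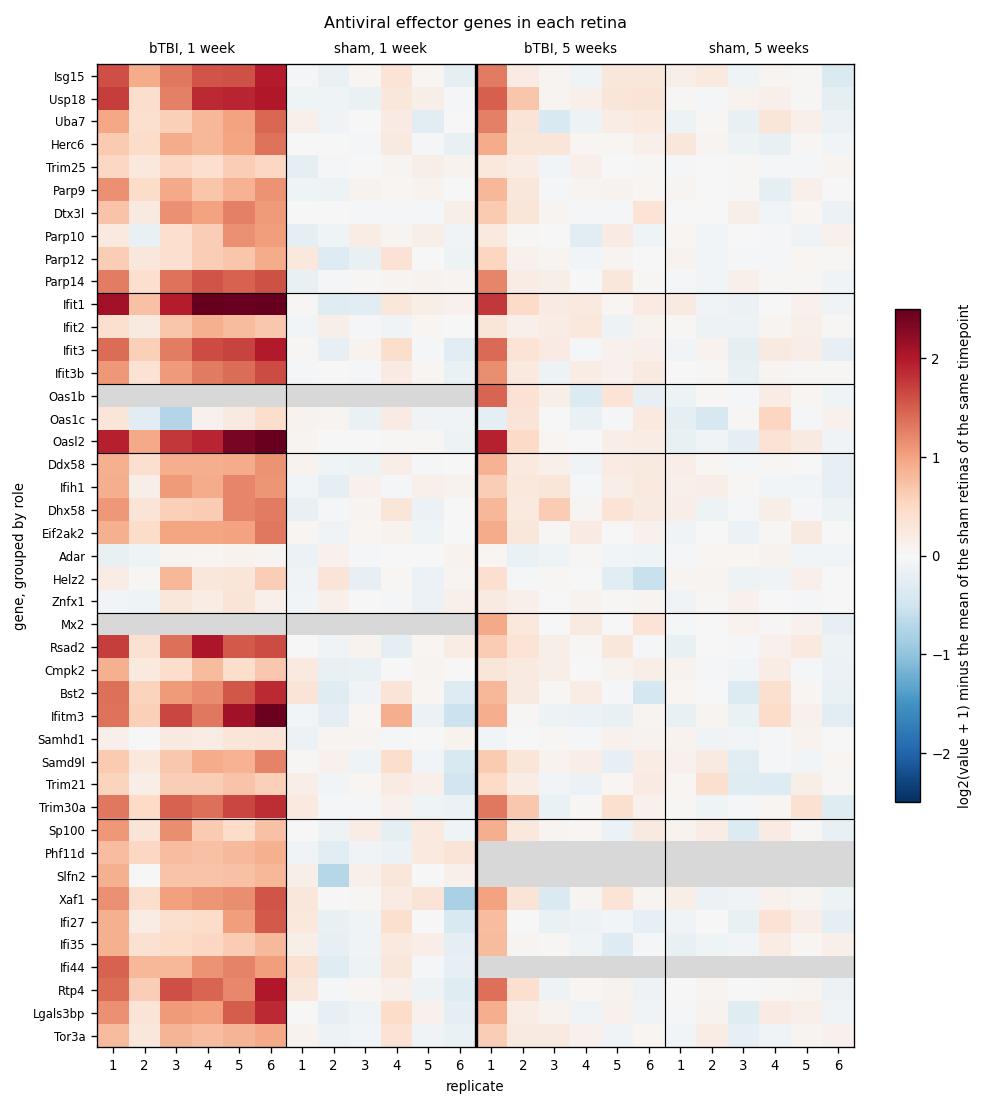
Level of each measured antiviral effector gene (rows, grouped by role) in each of the 24 retinas (columns, replicates 1 to 6 of each group), as log2(value + 1) minus the mean of the 6 sham retinas of the same timepoint, with colours ending at 2.5 in either direction and grey where a gene was not measured. The 6 bTBI retinas of 1 week are red over most genes, palest in replicate 2. At 5 weeks replicate 1 is the reddest of the 6 bTBI retinas, with a median of 0.83 over the genes, and replicate 2 is far paler, with a median of 0.25.

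The promoter sequences of 7 of these genes show the element that the family is known for, and they are printed to set genes that rose beside 1 that did not. The window from 250 bases before to 50 bases after each RefSeq transcription start (GRCm38.p6) was searched on both strands for the core of the interferon-stimulated response element, GAAANNGAAA or TTTCNNTTTC, where N is any base and matches may overlap. It was found in 3.99% of 27025 genes with a window and in 15 of the 37 listed genes with one, which is 40.5%. By group, it was found in 11 of 23 genes called higher at 1 week, in 2 of 10 measured and not called, and in 2 of 4 not measured at 1 week. A match describes the letters in this window and is no evidence of binding. Each stretch below lies upstream of its gene's start and reads 5′ to 3′ toward the gene, with the matches in capitals.
Isg15, chr4:156200855-156200926, minus strand: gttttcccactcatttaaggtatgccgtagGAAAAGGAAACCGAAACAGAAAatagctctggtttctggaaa
Ifit1, chr19:34640755-34640833, plus strand: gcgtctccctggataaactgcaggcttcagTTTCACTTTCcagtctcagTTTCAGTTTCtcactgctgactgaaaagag
Ifit3, chr19:34583343-34583436, plus strand: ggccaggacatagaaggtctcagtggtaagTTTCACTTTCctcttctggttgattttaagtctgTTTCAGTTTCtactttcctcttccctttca
Ifit3b, chr19:34607739-34607832, plus strand: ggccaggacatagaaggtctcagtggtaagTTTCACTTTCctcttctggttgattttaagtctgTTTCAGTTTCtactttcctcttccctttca
Rsad2, chr12:26456543-26456602, minus strand: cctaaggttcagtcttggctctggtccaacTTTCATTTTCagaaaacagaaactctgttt
Bst2, chr8:71537567-71537632, minus strand: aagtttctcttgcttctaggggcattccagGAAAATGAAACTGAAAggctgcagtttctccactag
Oas1c, chr5:120812593-120812634, minus strand: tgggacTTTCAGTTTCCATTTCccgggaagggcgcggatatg
Isg15 held 3 overlapping matches, the first starting 78 bases upstream of its start. Ifit3 and Ifit3b had the same 94 bases around their 2 matches, without a difference.

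Of the 10 genes of ISG15 conjugation and ADP-ribosylation, 8 rose at 1 week and the remaining pair, Parp10 and Parp12, did not pass the test. Isg15 (ENSMUSG00000035692.6) encodes the ubiquitin-like protein that is coupled to newly made proteins in interferon-treated cells. Its normalised read count was 4.71 at the lowest, 8.00 at the median and 10.7 at the highest in bTBI retinas, against 1.55, 2.0 and 2.78 in sham retinas. The groups did not overlap, and the lowest bTBI value, in replicate 2, was above the highest sham value. It rose by 1.50 ± 0.15 on the log2 scale (SE, n = 6 each, adjusted p = 7.87e-05), and Oasl2 alone of the listed genes had an adjusted p as small. Usp18, the protease that removes ISG15 and restrains the interferon receptor, had a change close to that of Isg15. Its values were 3.44, 10.4 and 12.1 (lowest, median and highest) in bTBI retinas and 1.91, 2.11 and 3.01 in sham retinas, and it rose by 1.53 ± 0.21 (adjusted p = 4.99e-04).

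The enzymes that couple ISG15 moved with it by a smaller amount. Uba7, the activating enzyme, rose by 0.88 ± 0.15 on the log2 scale (adjusted p = 0.00171), and Herc6, the main ISG15 ligase of the mouse, by 0.87 ± 0.13 (adjusted p = 8.57e-04). Trim25, a ubiquitin ligase of the RIG-I pathway, had the smallest change among the called genes of the list at 0.47 ± 0.07, yet its 6 bTBI retinas, between 36.3 and 46.3, lay above its 6 sham retinas, between 25.1 and 33.5. Parp14, an ADP-ribosyltransferase, had 12.2, 25.3 and 28.9 (lowest, median and highest) in bTBI retinas and 7.67, 9.15 and 9.45 in sham retinas, a log2 fold change of 1.28 ± 0.16 (adjusted p = 2.71e-04). Parp9 and Dtx3l, which form a complex of an ADP-ribosyltransferase and a ubiquitin ligase and overlap by 682 bases at their starts on chromosome 16, had near-equal changes of 0.87 ± 0.11 and 0.90 ± 0.14. Parp10 and Parp12 had log2 fold changes of 0.55 ± 0.18 and 0.59 ± 0.13 with adjusted p = 0.102 and 0.00948.

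All 4 IFIT genes rose. IFIT proteins bind RNA whose cap lacks the host's methylation and keep it from being translated, and the 4 genes lie side by side on chromosome 19 between positions 34550694 and 34650009 (GRCm38). Ifit1 (ENSMUSG00000034459.8) had the largest log2 fold change of all 41 genes, 2.09 ± 0.26 (adjusted p = 2.71e-04). It had 9.61, 30.4 and 42.2 (lowest, median and highest) in bTBI retinas against 4.21, 5.74 and 6.79 in sham retinas. The bTBI values were far apart from each other while the sham values stayed close, and the groups did not overlap. Ifit3 had 44.1, 84.5 and 117.3 in bTBI retinas and 23.4, 28.6 and 39.4 in sham retinas, and rose by 1.43 ± 0.18 (adjusted p = 2.92e-04). Its near-copy Ifit3b had 20.9, 38.3 and 52.3 in bTBI retinas and 14.2, 15.9 and 18.8 in sham retinas, and rose by 1.14 ± 0.16 (adjusted p = 4.12e-04). Of the 75-base windows of Ifit3 transcripts, 41.1% also occur in Ifit3b, and 35.7% of those of Ifit3b occur in Ifit3, so how reads were divided between these genes is uncertain. Ifit2, at the other end of the cluster, rose least, by 0.61 ± 0.10 (adjusted p = 0.00123).

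Of 7 listed OAS genes, Oasl2 and Oas1c were measured at 1 week, and Oasl2 alone was called. OAS enzymes answer double-stranded RNA by making oligoadenylates that switch on an RNA-degrading enzyme. Oasl2 had 31.5, 62.7 and 100.5 (lowest, median and highest) in bTBI retinas against 14.3, 16.0 and 16.6 in sham retinas, a log2 fold change of 1.92 ± 0.19 (adjusted p = 7.87e-05). Its sham retinas were nearly level while its bTBI retinas were spread widely, all above sham. Oas1c had 0.58, 1.94 and 2.54 in bTBI retinas and 1.33, 1.61 and 2.01 in sham retinas. The bTBI values of Oas1c lay on both sides of sham, and the log2 fold change was 0.01 ± 0.17 (adjusted p = 0.983), with no direction that held when single retinas were left out. The window before its start holds the same element as those of Ifit1 and Isg15. Oas1c starts 120 bases from Oas1b, which runs the other way and was measured at 5 weeks alone. The stretch printed for Oas1c reaches base 120812634, and Oas1b begins at base 120812635. Its matches therefore lie nearer to the start of Oas1b than to that of Oas1c. Which of these genes the element belongs to was not tested.

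Of 7 measured nucleic acid sensors and RNA-editing genes, 4 rose: Ddx58, Eif2ak2, Ifih1 and Dhx58. Ddx58, which encodes the sensor RIG-I, had 14.5, 20.9 and 24.5 (lowest, median and highest) in bTBI retinas and 9.69, 10.7 and 12.1 in sham retinas, and rose by 0.86 ± 0.10 (adjusted p = 2.38e-04). Eif2ak2, the kinase PKR that halts translation when it meets double-stranded RNA, had 10.6, 15.8 and 20.1 in bTBI retinas and 6.85, 7.60 and 7.92 in sham retinas, and rose by 0.94 ± 0.11 (adjusted p = 2.38e-04). In both genes the groups did not overlap. Ifih1 (the sensor MDA5) and Dhx58 (the regulator LGP2) rose by 0.89 ± 0.14 and 0.86 ± 0.16. Adar, which edits adenosines in double-stranded RNA, had 114.2, 135.9 and 138.8 in bTBI retinas and 117.1, 130.0 and 140.6 in sham retinas, fully overlapping groups with a log2 fold change of -0.00 ± 0.06 (95% interval -0.13 to 0.12). Adar is known to have an interferon-inducible and a constant promoter, and values per gene do not separate their transcripts. The RNA helicases Helz2 and Znfx1 had log2 fold changes of 0.37 ± 0.14 and 0.12 ± 0.08 with adjusted p = 0.143 and 0.480. Znfx1 had 60.7, 73.2 and 82.1 in bTBI retinas and 59.4, 64.1 and 72.2 in sham retinas, with 3 of its bTBI retinas above every sham retina.

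Of 8 measured restriction factors, 5 rose. Rsad2 encodes viperin, which makes a nucleotide that ends viral RNA chains. It had 3.25, 8.72 and 12.2 (lowest, median and highest) in bTBI retinas and 1.77, 2.30 and 2.71 in sham retinas, and rose by 1.45 ± 0.20 (adjusted p = 4.73e-04). Its neighbour on chromosome 12, Cmpk2, a nucleotide kinase, rose by 0.58 ± 0.11. Trim30a had 2.17, 4.96 and 6.99 in bTBI retinas and 1.02, 1.15 and 1.63 in sham retinas, and rose by 1.36 ± 0.18 (adjusted p = 3.25e-04). Every bTBI retina lay above every sham retina for Rsad2, Cmpk2, Trim30a and Bst2, the tether that holds budding virions at the membrane (1.27 ± 0.18). Ifitm3, which blocks fusion of virus and cell membranes, rose by 1.59 ± 0.27, but its lowest bTBI retina, at 15, lay below its highest sham retina, at 18.9. Samd9l (0.77 ± 0.15, adjusted p = 0.00559), the antibody receptor Trim21 (0.54 ± 0.12, adjusted p = 0.0128) and the nucleotide hydrolase Samhd1 (0.20 ± 0.06, adjusted p = 0.0852) did not pass the test.

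Of 10 measured genes of nuclear bodies and other roles, 7 rose. Rtp4, a chaperone of membrane receptors that also restrains flaviviruses, had 2.73, 5.53 and 8.68 (lowest, median and highest) in bTBI retinas and 0.97, 1.43 and 1.97 in sham retinas, a log2 fold change of 1.38 ± 0.18 (adjusted p = 3.34e-04). Tor3a, an ATPase of the endoplasmic reticulum, had 11.9, 17.5 and 19.3 in bTBI retinas and 8.43, 8.99 and 12.5 in sham retinas, and rose by 0.75 ± 0.11 (adjusted p = 8.02e-04), with bTBI replicate 2 inside the sham range. Lgals3bp, a secreted galectin-binding glycoprotein, rose by 1.16 ± 0.19, Xaf1 by 1.08 ± 0.19 and Ifi35 by 0.62 ± 0.11. Ifi44 (1.09 ± 0.15) and Phf11d (0.75 ± 0.12) also rose, both measured at 1 week through their bTBI retinas. The nuclear body protein Sp100 missed the threshold (0.74 ± 0.14, adjusted p = 0.00536), though its groups did not overlap. Ifi27 and Slfn2 had log2 fold changes of 0.75 ± 0.19 and 0.65 ± 0.18 with adjusted p = 0.0290 and 0.0382.

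**Figure D2:**
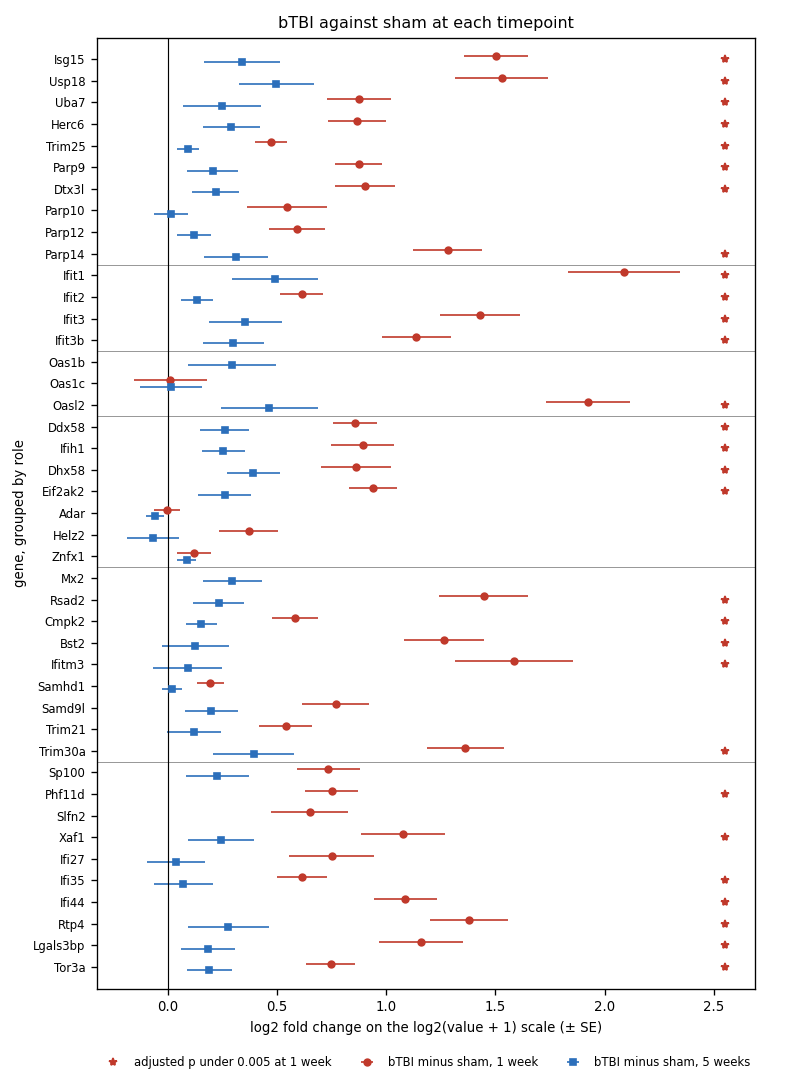
Log2 fold change of each measured gene, bTBI minus sham on the log2(value + 1) scale, at 1 week (circles) and 5 weeks (squares), with standard errors and stars for the 29 genes with an adjusted p under 0.005 at 1 week. At 1 week the points spread between -0.00 and 2.09, and at 5 weeks all lie between -0.07 and 0.50 with no gene called.

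The bTBI retinas of 1 week differed among themselves in the height of the whole group of genes. The mean log2(value + 1) of the 41 genes in a retina, called the effector score here, was 3.87, 3.27, 3.80, 3.88, 4.01 and 4.18 in bTBI replicates 1 to 6, against 2.96, 2.83, 2.90, 3.09, 2.94 and 2.82 in sham replicates 1 to 6. Every bTBI score lay above every sham score, and the SD over retinas was 0.31 in bTBI and 0.10 in sham. Replicate 2 was the lowest of the 6 bTBI retinas for 38 of the 41 genes, against 16.8% of all genes. Its effector genes had a median of 0.35 above the sham mean on the log2 scale, against 0.89 to 1.12 in the other 5. Replicate 6 was the highest of the 6 for 25 of the 41 genes, against 14.1% of all genes.

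Other transcripts moved with the effector genes at 1 week. Of 9 measured microglial markers 6 rose, with a summed level between 166.9 and 379.9 in bTBI retinas and between 106.9 and 162.8 in sham retinas, and none of the 9 was at 0. Replicate 2, the lowest bTBI retina in effector score, was also the lowest in microglial sum. Replicate 3 had the highest microglial sum and the fifth highest effector score (3.80), while replicate 6 had the highest effector score and the fifth highest microglial sum (215.2). Of 6 measured macroglial markers Gfap and Vim, filament genes of reactive astrocytes and Müller glia, rose by 2.51 ± 0.45 (adjusted p = 0.00273) and 0.78 ± 0.15 (adjusted p = 0.00383) and 0 were called lower. The mean log2(value + 1) of the 6 was 8.57 to 9.41 in bTBI retinas, lowest in replicate 2, and 8.12 to 8.37 in sham retinas, with none at 0. Their summed level did not rise with it, at 5286 to 6076 (median 5403) in bTBI retinas and 5394 to 6021 (median 5890) in sham retinas. At an unadjusted p under 0.05 by limma, 4 of the 6 were higher and 2 lower, against 1242 and 1333 of all 14922 genes. None of 6 listed markers of monocytes and neutrophils or 9 of T, NK and B cells was among the measured genes. Lens transcripts were high in bTBI replicates 5 and 6, with sums of 3686 and 7276 over 6 markers, against 35.9 to 376.9 in the other bTBI retinas and 5.30 to 692.4 in sham retinas. Without these 2 retinas 0.456% of all genes were called higher, and of the 41 effector genes 14 were (Bst2, Ddx58, Eif2ak2, Ifi44, Ifit1, Ifit3, Ifit3b, Isg15, Oasl2, Parp14, Parp9, Rtp4, Trim30a and Usp18). In that limma fit 31 of the 41 had an adjusted p under 0.05, against 274 higher and 224 lower of all 14922 genes. The median log2 fold change of the effector genes was 0.76. The summed level of 7 RGC markers was between 667.3 and 1132 in bTBI retinas and between 1248 and 1498 in sham retinas, and all 7 were called lower. The highest bTBI sum of RGC markers was that of replicate 2. The summed level of 3 oligodendrocyte markers was 3452 in bTBI replicate 3 and 206.1 in replicate 4, against 72.7 to 82.9 in the other bTBI retinas and 64.9 to 74.4 in sham retinas. Without replicate 3 the count of effector genes called higher was 27, when 152 of all 14922 genes were called higher, against 189 with it. The part of these other transcripts in the change of the effector genes was not tested.

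The interferon pathway around the effectors was measured in part. None of 10 listed interferon genes, among them Ifnb1 and Ifng, was among the measured genes of either timepoint. At 1 week 0 of 5 interferon receptor subunits and 0 of 3 JAK kinases were called. The smallest p of the receptors belonged to Il10rb and Ifnar2, with log2 fold changes of 0.37 ± 0.13 and 0.33 ± 0.12 (adjusted p = 0.115 and 0.128), and of the kinases to Jak2 and Tyk2 (0.09 ± 0.05 and 0.08 ± 0.07). Among the transcription factors, Irf9 (1.37 ± 0.15, adjusted p = 1.74e-04), Irf7 (1.14 ± 0.18) and Irf8 (1.0 ± 0.15) were called higher. Irf9 encodes a part of the factor that binds the response element, Irf7 drives interferon genes, and Irf8 is a factor of microglia and other myeloid cells. Stat2, which encodes another part of the factor that binds the response element, was 0.36 ± 0.09 above sham (adjusted p = 0.0228). Of 6 adaptors of nucleic acid sensing 1 was called, Sting1 (0.81 ± 0.16, adjusted p = 0.00453), and the next smallest p was that of Ticam1 (0.37 ± 0.11, adjusted p = 0.0524). Of 5 feedback inhibitors 0 were called, and Ptpn6 (0.67 ± 0.14, adjusted p = 0.00610) and Socs3 (0.80 ± 0.17, adjusted p = 0.00987) came nearest. At 5 weeks 0 genes of these lists were called.

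At 5 weeks 0 of the 40 measured effector genes were called higher and 0 lower at an adjusted p under 0.005 by limma, while 0.0126% of all genes were called higher and 0.823% lower. None of the 40 had an adjusted p under 0.05, while 0.113% of all genes were higher and 1.93% lower at that threshold. At an unadjusted p under 0.05, 14 were higher and 0 lower, against 3.97% of all genes higher and 6.95% lower, and 38 of the 40 had a log2 fold change above 0 with a median of 0.22. In 0 of the 40 did every bTBI retina lie above every sham retina, which held for 0.239% of all genes. Without bTBI replicate 1 the median log2 fold change was 0.10.

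The genes with the largest changes at 1 week had overlapping groups at 5 weeks. Isg15 had 1.35, 1.99 and 5.25 (lowest, median and highest) in bTBI retinas and 0.95, 1.62 and 1.97 in sham retinas, a difference of 0.34 ± 0.17 on the log2 scale (adjusted p = 0.499). Ifit1 had 4.0, 4.61 and 15.3 in bTBI retinas and 3.33, 3.66 and 4.59 in sham retinas (0.49 ± 0.20, adjusted p = 0.316). Oasl2 had 13.4, 15.1 and 53.1 in bTBI retinas and 11.3, 12.5 and 17.4 in sham retinas (0.47 ± 0.22, adjusted p = 0.447). In each of these genes 1 bTBI retina, replicate 1, stood far above the other 5. Usp18 was 0.50 ± 0.17 above sham on the log2 scale (adjusted p = 0.213), and Dhx58 had the smallest p of the list (0.39 ± 0.12, adjusted p = 0.134), and in both 1 bTBI retina lay within the sham range and 5 above it. So it was for Ifit3b, with values of 8.69, 11.3 and 22.9 in bTBI retinas and 8.40, 9.84 and 10.2 in sham retinas (0.30 ± 0.14, adjusted p = 0.430).

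Other genes with values given at 1 week also had overlapping groups at 5 weeks. Ifit3 had 17.3, 20.4 and 49.6 (lowest, median and highest) in bTBI retinas and 15.3, 18.3 and 21.3 in sham retinas, and Parp14 had 5.62, 6.35 and 14.3 in bTBI retinas and 5.13, 5.54 and 6.16 in sham retinas. Rsad2 had 1.63, 2.12 and 3.15 in bTBI retinas and 1.37, 1.65 and 2.19 in sham retinas, and its highest bTBI retina stood out less than that of Oasl2. Ddx58 had 8.29, 10.4 and 16.9 in bTBI retinas and 7.49, 8.97 and 10 in sham retinas. Eif2ak2 had 6.77, 7.62 and 13.7 in bTBI retinas and 5.95, 6.66 and 8.06 in sham retinas. In both, replicate 1 was again the highest bTBI retina. Trim30a had 0.77, 1.37 and 3.89 in bTBI retinas and 0.59, 0.96 and 1.59 in sham retinas, and Rtp4 had 0.94, 1.20 and 4.45 in bTBI retinas and 0.91, 1.13 and 1.20 in sham retinas. Oas1c did not share the pattern, with 0.74, 1.04 and 1.58 in bTBI retinas, replicate 1 being the lowest, and 0.57, 1.05 and 1.99 in sham retinas. Oas1b carries a truncating allele in C57BL/6 mice, so its transcript is not known to give a full-length protein. It had 1.10, 2.16 and 6.30 in bTBI retinas and 1.43, 1.67 and 2.03 in sham retinas (0.29 ± 0.20, adjusted p = 0.675). Mx2, an interferon-induced GTPase, had 1.22, 1.65 and 3.34 in bTBI retinas and 0.95, 1.26 and 1.41 in sham retinas (0.30 ± 0.13, adjusted p = 0.411). Adar lay between 95.3 and 110.7 in bTBI retinas and between 101.4 and 113.1 in sham retinas, and had a log2 fold change of -0.06 ± 0.04, below 0 as had Helz2 (-0.07 ± 0.12).

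**Figure D3:**
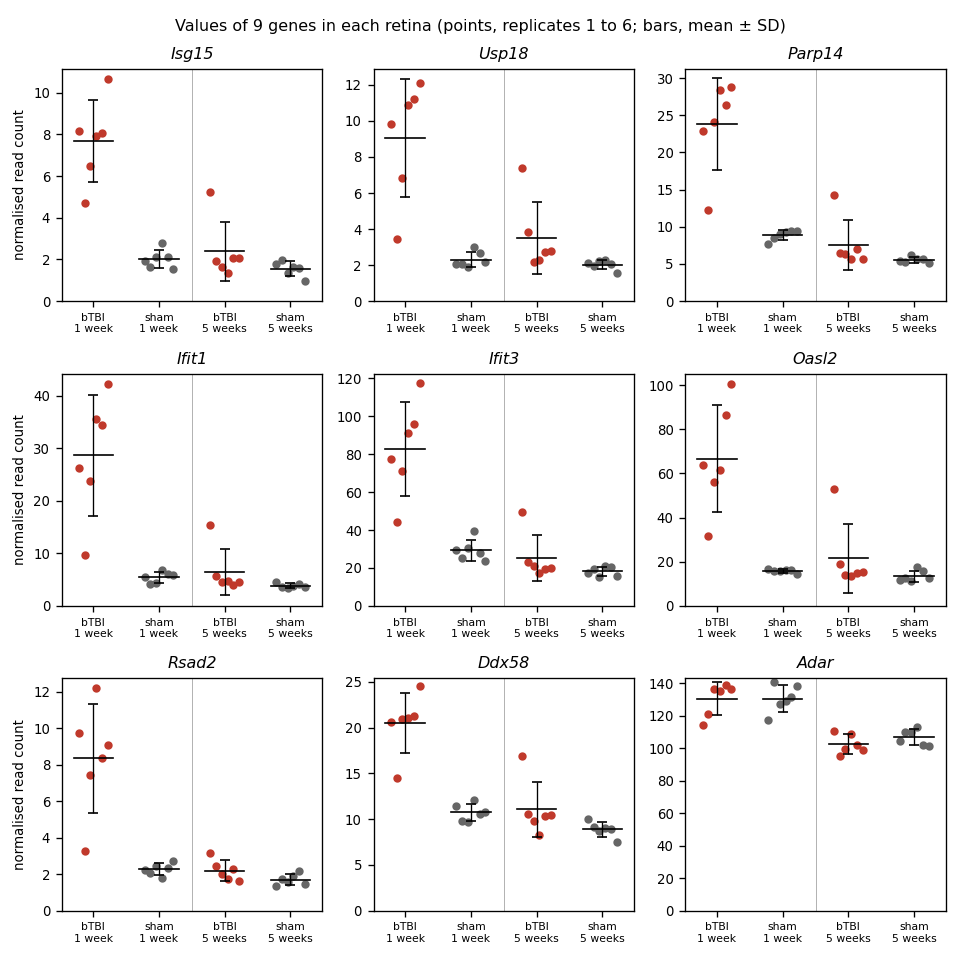
Normalised read count of 9 genes in each retina, with points for replicates 1 to 6, lines for the mean and bars for the SD, in bTBI and sham at 1 week and at 5 weeks. At 1 week the groups are apart in the first 8 genes and overlap in Adar, and at 5 weeks bTBI replicate 1, the first point of its group, lies above the other 11 retinas in the first 8 genes (53.1 against at most 18.9 for Oasl2).

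A single retina of 5 weeks, singled out here for its high score on these same genes, held most of the difference, and its values are given as a description. The effector score over the 40 genes was 3.75 in bTBI replicate 1, against 3.17, 2.97, 2.94, 3.0 and 3.0 in bTBI replicates 2 to 6 and 2.84 to 3.01 in the 6 sham retinas. The mean score was 0.21 higher in bTBI than in sham with this retina and 0.09 higher without it. Replicate 1 was the highest of the 12 retinas for 37 of the 40 genes, while it was the highest for 10.8% of all genes, and the exceptions were Adar, Samhd1 and Oas1c. Relative to the sham mean, 38 of the 40 genes were higher in it, by a median of 0.83 on the log2 scale, against a median over all genes of 0.00. In replicate 2, 38 of the 40 genes also lay above the sham mean, by a median of 0.25, and in replicates 3 to 6 the median was 0.02 to 0.10 with 23 to 29 genes above.

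In replicate 1 the genes with larger 1-week changes mostly lay farther above the sham mean. The 5 genes farthest from the median of the other 11 retinas were Oasl2 (1.87 on the log2 scale), Ifit1 (1.65), Oas1b (1.43), Usp18 (1.39) and Rtp4 (1.35). Oasl2 had 53.1 in this retina, with 13.8 at the median and 18.9 at the highest of the other 11. Over the 38 genes measured at both timepoints, the difference of this retina from the 5-week sham mean and the 1-week log2 fold change had a Pearson correlation of 0.90, given as a description over genes, which are not independent replicates. The same correlation was 0.62 for replicate 2 and 0.08 to 0.38 for replicates 3 to 6, and all 6 share the same sham mean. Rsad2, with a 1-week log2 fold change of 1.45 against 1.38 for Rtp4, was only 0.60 above the median of the other retinas. That order depends on the scale. The ratio of the mean values of 1 week, bTBI to sham, was 3.69 for Rsad2 and 3.85 for Rtp4.

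**Figure D4:**
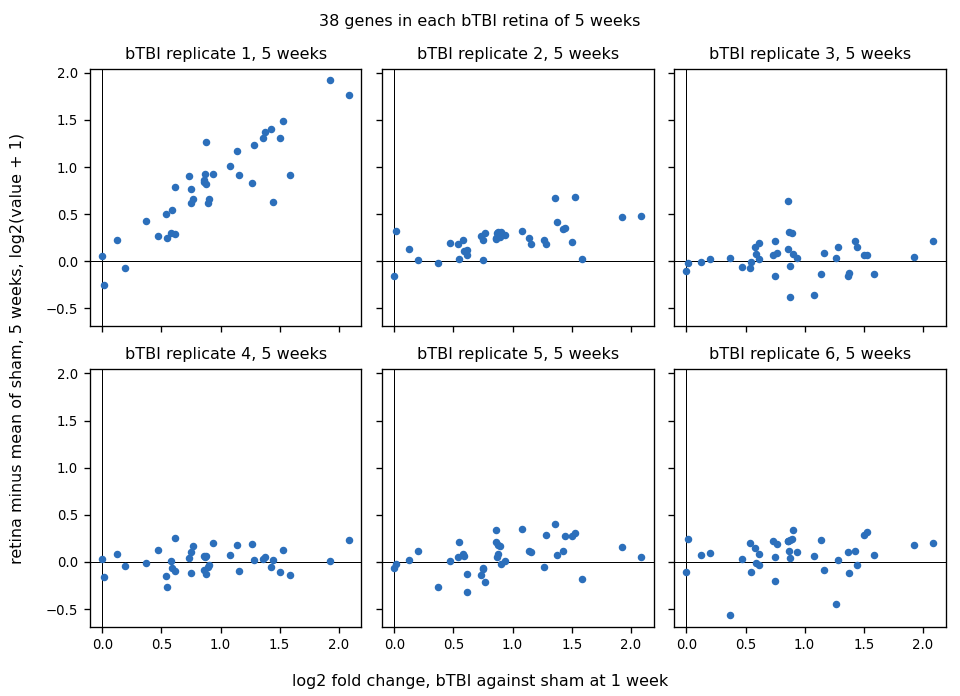
For each of the 6 bTBI retinas of 5 weeks, the difference of log2(value + 1) from the mean of the 6 sham retinas of 5 weeks (vertical axis) against the log2 fold change of the gene at 1 week (horizontal axis), 1 point for each of 38 genes. Points of replicate 1 climb to 1.92 with the 1-week change (Pearson correlation 0.90), those of replicate 2 climb less (0.62), and those of replicates 3 to 6 stay around 0.

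Outside the list, genes for which replicate 1 was the highest of the 12 retinas were ranked by their distance above the median of the other retinas. The 3 farthest were Optc, which encodes a proteoglycan made by the ciliary body of the eye, H2-T23, an antigen-presenting class I molecule, and Gbp3, an interferon-induced GTPase, named after their values were seen. H2-T23 had 21.3 in it and at most 8.28 in the other 11 retinas, and Gbp3 had 22.2 and at most 9.93. Optc had 12.6 in it, close to another retina at 12. The 7 measured microglial markers of replicate 1 summed to 83.2, the highest of the 12, against 70.4 to 79.7 in the other bTBI retinas and 66.5 to 76.0 in sham retinas. Its macroglial score, the mean log2(value + 1) of the markers, was 7.81, also the highest of the 12. That score was 7.58 to 7.71 in the other bTBI retinas and 7.50 to 7.62 in sham retinas. Its macroglial sum of 3671 was not the highest, with 3756 in bTBI replicate 4 and 3673 in sham replicate 1. Gfap had 22.1 in replicate 1 and at most 13 in the other 11. Its 7 RGC markers summed to 367.7, the lowest of the 12, with 715.6 to 788.7 in sham retinas, and its lens markers to 4.39, lower than in any other bTBI retina. The part of these transcripts in its effector score was not tested.

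**Figure D5:**
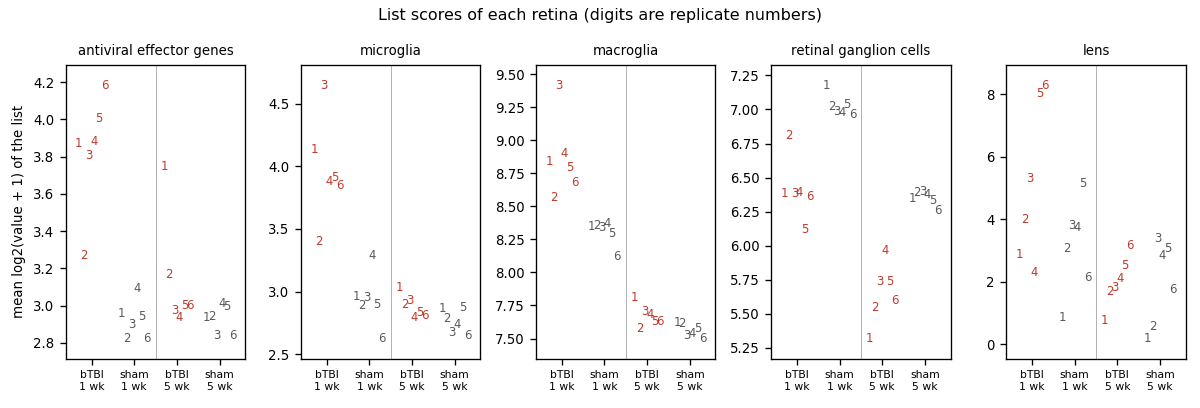
Mean log2(value + 1) of the measured effector genes and of the markers of microglia, macroglia, RGCs and lens in each retina (digits are replicate numbers), with a separate vertical axis for each list. Effector scores are 3.27 to 4.18 in bTBI and 2.82 to 3.09 in sham retinas at 1 week, and at 5 weeks bTBI replicate 1 stands at 3.75 with all other retinas at or below 3.17, while lens scores are highest in bTBI replicates 5 and 6 of 1 week.

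Whether the bTBI effect itself differed between 5 weeks and 1 week was tested over the 38 genes measured at both. The effect was smaller at 5 weeks for 37 of them, with a median difference of -0.63 on the log2 scale. At an adjusted p under 0.005, 0 of the 38 were called by limma, while 0.104% of all genes were called with a smaller effect at 5 weeks, and 35 had an unadjusted p under 0.05 in that direction, against 5.64% of all genes. At an adjusted p under 0.05, 8 were lower, against 0.726% of all genes: Rsad2 (-1.21 ± 0.24, adjusted p = 0.0123), Isg15 (-1.16 ± 0.25, adjusted p = 0.0240), Ifit1 (-1.60 ± 0.36, adjusted p = 0.0316), Ifitm3, Bst2, Oasl2, Trim25 and Parp14. The count at the stricter threshold turned on single retinas. It was 14 without bTBI replicate 2 of 1 week, the lowest of its group, when 0.754% of all genes were called in that direction, and 11 without bTBI replicate 1 of 5 weeks, when 0.297% were. Ifit1, Ifit3, Ifit3b, Isg15, Oasl2, Parp14 and Rsad2 were called in both. Oas1c had a difference of 0.00 ± 0.23.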

How the data were processed

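The authors aligned the reads to the GRCm38 (mm10) genome by STAR, obtained reads per gene from featureCounts and analysed these in edgeR. Their stranded libraries were read in paired 75-base reads. The deposited signal values are counts of reads per gene, scaled by the authors to an effective library size for each retina, with genes of low counts already removed and each timepoint in a table of its own. The values of a retina were found at whole multiples of a smallest unit (tolerance 0.01 of it), taken as 1 read. Depth is the summed values in that unit, an estimate that was not checked against read totals. Nothing in the labels names cohorts or batches within a timepoint.

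Values were transformed to log2(value + 1) and tested within each timepoint, and for the difference over the 14455 genes of both tables, with limma 3.58.1 (statmod 1.5.0, R 4.3.3), a mean-dependent prior variance and Benjamini-Hochberg adjustment over all genes. An adjusted p under 0.005 was called. Gene IDs were matched to symbols for 14907 of 14922 and 15902 of 15920 genes. The members and lists were chosen with earlier results of these data known. Values by group are given for the 2 genes of each role with the smallest p at 1 week, for Ifit3, Ifit3b and Oas1b, and for the 3 genes with the largest p, and for further genes named after their values were seen. Promoters came from RefSeq (GRCm38.p6), transcript windows and positions from the GENCODE M21 annotation. Tables were handled with Python 3.11.15, pandas 2.3.3, numpy 2.4.6 and scipy 1.17.1, and plots drawn with matplotlib 3.10.9. The alternatives were a pseudocount of 0.1, a stricter filter on low values, other scalings and priors, a single fit, a replicate block, a threshold of 0.05 and the omission of each retina. The omission of bTBI replicates 5 and 6 of 1 week together was added after the data were seen. Some genes of the pathway lists are not reported here.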

Additional observations from a re-analysis of the deposited data

Results flagged for a closer look

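In 15 of 70 groups of 6 retinas examined, the retina at 1 end stood apart, with a gap to its neighbour, as a share of the range of its group, above Dixon's 95% critical value for 6 samples, which chance does in about 1 in 20 groups. In 12 of the 15 it was bTBI replicate 1 of 5 weeks, the highest of its group. That retina had been singled out for its high score on these genes, and Oasl2, Ifit1, Oas1b, Usp18 and Rtp4 were examined in part for their distance in it, so its 12 values describe it and are not to be set against chance. Its gap was 0.715 of the range for the effector score over the 40 genes. It was 0.863 for Oasl2, 0.85 for Ifit1, 0.846 for Parp14, 0.819 for Ifit3, 0.816 for Isg15 and 0.794 for Ifit3b. It was 0.764 for Eif2ak2, 0.753 for Rtp4, 0.746 for Oas1b, 0.733 for Ddx58 and 0.68 for Usp18. The genes share this retina, so these are not separate events. At 1 week bTBI replicate 2 stood below the other 5 bTBI retinas for Tor3a (0.698) and Parp14 (0.639). Sham replicate 3 of 5 weeks stood below the other 5 sham retinas for Ifit3b (0.724).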

How the results depend on the processing

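At 1 week the count of genes called higher was 22 to 34 when single retinas were left out, and 22 of the 29 were called in all 12 such fits, while Uba7, Dhx58, Cmpk2, Ifitm3, Xaf1, Ifi35 and Lgals3bp were lost in 1 or more. It was 24 with a prior without the trend, 28 with a replicate block, 30 with a pseudocount of 0.1 and 35 at a threshold of 0.05. In the single fit, which held only the 38 effector genes measured at both timepoints, it was 30. Without bTBI replicates 5 and 6 it was 14, when Herc6, Trim25, Dtx3l, Ifit2, Ifih1, Rsad2, Phf11d and Tor3a were lost beside the 7 above. The count over all 14922 genes moved too, from 189 higher in the main fit to 105 to 273 over single omissions. It was 136 without the trend, 172 with the block, 194 with a pseudocount of 0.1 and 320 of 14455 in the single fit. At a threshold of 0.05 it was 450, and without bTBI replicates 5 and 6 it was 68. Replicate numbers were not taken as pairs, since same-numbered retinas had correlations of -0.25 to 0.54 at 1 week and -0.11 to 0.15 at 5 weeks. With the block at 5 weeks 0 effector genes were called, while 1 of all 15920 genes was called higher and 133 lower. At 5 weeks 0 effector genes were called under any alternative run, while 0 to 18 of all genes were called higher and 54 to 308 lower. The median log2 fold change of the effector genes was 0.10 to 0.27 over single omissions, lowest without bTBI replicate 1. The difference between timepoints gave 8 effector genes at a threshold of 0.05 and 0 to 14 over single omissions at 0.005. Over all 14455 genes, 105 were lower at 0.05 and 9 to 109 over single omissions at 0.005. Genes near 0 changed sign. Oas1c at 1 week was -0.0303 with a pseudocount of 0.1, -0.1436 without bTBI replicates 5 and 6, and -0.0715 to 0.1616 over single omissions, at 5 weeks -0.0619 to 0.1234, and its difference -0.1443 to 0.1101. Adar at 1 week was 0.0006 with scaling by the median of ratios and -0.0325 to 0.0351 over single omissions. The Znfx1 difference was 0.0132 without bTBI replicates 5 and 6 and -0.0829 to 0.0031 over single omissions. The cause of these changes was not tested. A count test on reads inferred from the steps was listed and was not run. Counting noise weighs most on genes with values near 1, such as Oas1c.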

Other observations

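Many of the listed genes lie side by side in the genome. With gaps of up to 200000 bases allowed, 7 clusters held 20 of the 50 genes. In transcripts of the GENCODE M21 annotation, 7 of the 50 genes shared 10% or more of their 75-base windows with another gene, and 22 shared none. Oas1a had the largest share, 47.6%, and was not measured. The others were Ifit3 (41.1%), Ifit3b (35.7%), Sp110 (30.4%), Adar (13.1%, with Chrnb2), Herc6 (11.3%) and Rtp4 (10.5%), and how reads were divided between these genes and those that share their windows is uncertain.

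In bTBI replicate 1 of 5 weeks, other genes of the interferon response outside the list also stood high, picked here after their values were seen. The interferon-induced GTPases Gbp9, Gbp6 and Igtp had 12, 7.47 and 13 in this retina, with at most 7.15, 4.17 and 7.21 in the other 11. The helicase Ddx60 had 12.5 and at most 6.39, and the complement gene C4b had 24.9 and at most 11.4.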
